A study of Bassia scoparia with 27 samples.

Results

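The transcripts described here are the expressed gene models of a stretch of chromosome 3 of kochia (Bassia scoparia) that starts at 35 Mb and ends at 38 Mb of genome assembly version 2. The stretch was selected on untreated libraries, because the cytochrome P450 transcript Bs.00g206320.m01 and a pair of CYP90A1 transcripts inside it were high in the line Flur-R and near 0 in the line 9425. The gene models place 126 mRNA models of 122 loci there, of which 99 have a row in the count table, and 47 reached a normalized count of 10 in at least 2 libraries. The CYP90A1 pair, Bs.00g205780.m01 and Bs.00g205800.m01, was left out, which left 45 transcripts of 41 loci, of 29165 transcripts that passed the same filter in the whole series. Of the 52 transcripts of the stretch under the filter, 1 reached 10 in a single library and none of the others did. At the other side of this threshold, the members Bs.00g205700.m01 and Bs.00g205940.m01 passed with 10 in their second highest library. A smaller share of the models passed here (37.3%) than on the whole chromosome (53.4%).

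The study compared Flur-R (labelled B3 in the sample titles), a kochia population resistant to the auxin mimic herbicide fluroxypyr, with 9425, an inbred line that carries a dicamba resistance mutation in IAA16 and is susceptible to fluroxypyr, and J01-S, a susceptible field population. That mutant IAA16 allele also segregates in Flur-R. Shoot tip tissue labelled meristem was taken from plants sprayed with water (untreated) and from the same plants 3 and 10 hours after fluroxypyr was applied (3 and 10 HAT), and no tissue of unsprayed plants was taken at 3 or 10 h. The 25 libraries used were 3 untreated, 3 at 3 HAT and 4 at 10 HAT for Flur-R, 3 at each time for 9425 and 2 at each time for J01-S.

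Fluroxypyr is taken up by the plant and binds auxin receptors, so it sets off auxin-responsive transcription. The study found that Flur-R turned fluroxypyr into other metabolites faster than J01-S, and proposes that conjugation may explain part of them. Cytochromes P450 are heme enzymes of the endoplasmic reticulum that add oxygen to many substrates, among them hormones such as brassinosteroids and, in some resistant weeds, herbicides. Where reads are aligned to the coding sequences of a single reference genome, as here, only reads that match that reference are counted, and a value of 0 does not say whether the gene is present. Only Bs.00g206320.m01 among the 45 transcripts has a described function in the sources used here, the cytochrome P450 superfamily, so the other members are given by their identifiers.

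Normalized counts summed to between 50872625 and 76916252 per library, lowest at 10 HAT in each line. The values are the authors' normalized counts, from which reads cannot be recovered, so the number of reads behind a value is unknown. In bulk tissue fewer cells of a type and less RNA per cell cannot be told apart. Genes of green tissue were high in every untreated library, with the chlorophyll a-b binding transcript Bs.00g240870.m01 at 301017 or more and the magnesium chelatase transcript Bs.00g192330.m01 at 214648 or more, and no meristem marker could be set. Replicates are plants. On 954 transcripts outside the stretch that part 9425 from J01-S, the library labelled J01-S 10 HAT replicate 3 had 96.2% on the 9425 side, and the library labelled 9425 10 HAT replicate 3 had 39.1%. The other 9425 libraries at 10 HAT had 94.5 to 98.5% while the remaining pair from J01-S had 4.19 and 27.3%. The Flur-R libraries at 10 HAT had 38.8 to 64.5%. The transcripts were picked on untreated and 3 HAT libraries of 9425 and J01-S. J01-S plant 4 (4.19%) and the 9425 plants are among those used for that choice, and J01-S plant 2 (27.3%) is not. Both doubtful libraries were left out of every value below unless they are named.

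The 45 transcripts together made up very different parts of the libraries of the 3 lines. Untreated, their normalized counts summed to 140320, 48423 and 139107 in Flur-R plants 2, 3 and 4, to 280352 and 248456 in J01-S plants 1 and 4, and to 6753, 4544 and 5118 in 9425 plants 1, 2 and 3. The 9425 sums lay below every sum of the other lines, and the J01-S sums above every Flur-R sum. At 10 HAT the sums were 11009 to 12923 in the 4 Flur-R libraries, 23750 and 45914 in J01-S and 6316 to 7493 in 9425, so the lines lay closer together. Most of this came from a few transcripts. Bs.00g206260.m01, Bs.00g205950.m01 and Bs.00g206020.m01 had the highest means over the 25 libraries.

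Calling a transcript expressed in a line at 10 or more in at least 2 of its libraries, 20 of the 45 (44.4%) were expressed in all 3 lines, against 80.8% of the 29165. Another 14 (31.1%) were expressed in Flur-R and J01-S and not in 9425, against 3.24% in the series. In Flur-R alone 4 were expressed, against 2.79% in the series, and in J01-S alone 4, against 3.49%. No member was expressed in 9425 alone, against 2.54% in the series. The 3 remaining transcripts were expressed in 9425 and J01-S, in Flur-R and 9425, and in no line by this count.

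**Figure D1:**
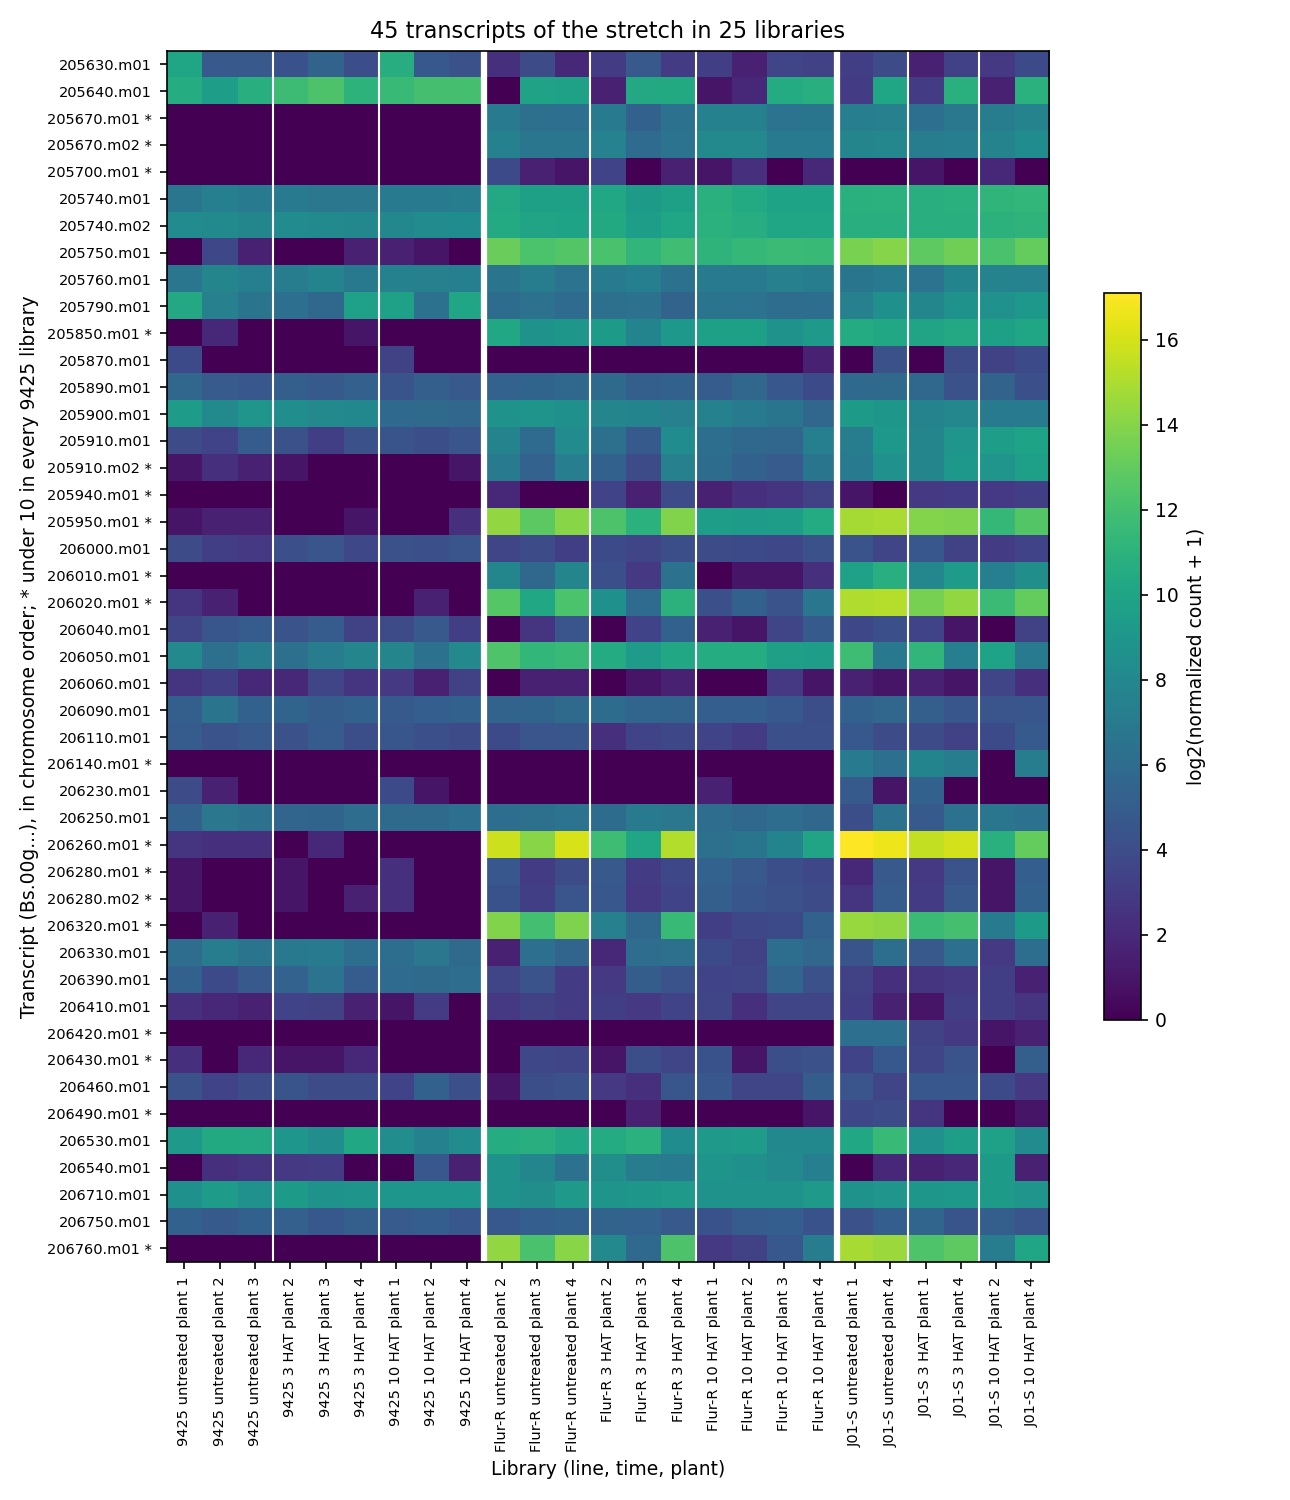
Level of the 45 transcripts (rows, in chromosome order) in the 25 libraries (columns, by line, time and plant), as log2 of the normalized count plus 1. The 18 transcripts with an asterisk are below 10 in all 9 libraries of 9425, and those between Bs.00g205950.m01 and Bs.00g206760.m01 that are bright in untreated Flur-R and J01-S darken by 10 HAT.

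In 9425, 18 transcripts of 16 loci were silent, where silent means a normalized count under 10 in each of its 9 libraries together with 10 or more in at least 2 libraries of Flur-R or of J01-S. In the series 7.44% of the transcripts met this definition. It is a description and says nothing of whether the gene is present, and since such transcripts passed the filter only through the lines that express them, no test was attached to the count. Of the 18, 9 were listed at 0 in every 9425 library, and the highest value of any of them in 9425 was 5. Of these 18, 13 were expressed in both other lines, 3 in J01-S only and 2 in Flur-R only.

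Strongly expressed transcripts were part of this set. Of the 18, 11 (24.4% of the 45 members) had a mean of at least 50 in Flur-R or in J01-S. In the series 2% of the transcripts were silent in 9425 with such a mean. A mean of at least 1000 in either line was reached by 6 of the 18 (13.3% of the members). In the series 39 transcripts (0.134%) were silent in 9425 with a mean that high. The 6 members are Bs.00g205850.m01, Bs.00g205950.m01, Bs.00g206020.m01, Bs.00g206260.m01, Bs.00g206320.m01 and Bs.00g206760.m01. A further transcript, Bs.00g205750.m01, missed the definition by a single library, with 12 in untreated 9425 plant 2 and at most 2 in the other 9425 libraries, beside 2180 to 9437 in Flur-R and 4753 to 16673 in J01-S.

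The level of each line is given here for the silent transcripts at each place along the stretch, beginning with the lower end. Bs.00g205670 (chr3:35127849-35131773, minus strand) is the first silent locus. Its isoform Bs.00g205670.m02 had 179, 104 and 103 in untreated Flur-R, 214 and 238 in untreated J01-S and 0 in every 9425 library. Its other isoform, Bs.00g205670.m01, had 124, 80 and 76 in untreated Flur-R, 158 and 171 in untreated J01-S and 0 in 9425. Reads shared by both isoforms make each separate level uncertain, but the locus is at 0 in 9425 by either. In Flur-R and J01-S neither isoform passed the test for a change with time.

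Bs.00g205850.m01 (chr3:35592344-35595130, minus strand) had 1180, 432 and 523 in untreated Flur-R, 1448 and 1147 in untreated J01-S and 0, 3 and 0 in untreated 9425. It kept a level of 205 or more in every Flur-R library and 840 or more in every J01-S library after treatment. Bs.00g205910.m02 (chr3:35729357-35741501, minus strand) had 130, 40 and 159 in untreated Flur-R, 135 and 409 in untreated J01-S and 1, 4 and 2 in untreated 9425. The other isoform of that locus, Bs.00g205910.m01, picked after its values were seen, was not silent, with 14, 10 and 31 in untreated 9425.

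The next group of silent loci lies about the middle of the stretch. Bs.00g205950.m01 (chr3:36137429-36155105, minus strand) had 20479, 7204 and 17138 in untreated Flur-R, 27870 and 31806 in untreated J01-S and 1, 2 and 2 in untreated 9425. Bs.00g206010.m01 (chr3:36274396-36283138, minus strand) had 228, 55 and 221 in untreated Flur-R, 870 and 1805 in untreated J01-S and 0 in all 9425 libraries. Bs.00g206020.m01 (chr3:36283785-36288226, plus strand) had 6075, 1236 and 4906 in untreated Flur-R, 33844 and 37192 in untreated J01-S and 5, 2 and 0 in untreated 9425. These last loci are neighbours on opposite strands, and in both of them the J01-S plants lay above every Flur-R plant.

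Bs.00g206260.m01 (chr3:37005633-37013646, minus strand) had the highest values of the stretch. It had 55771, 16848 and 70064 in untreated Flur-R, 140361 and 104962 in untreated J01-S and 5, 4 and 4 in untreated 9425. Divided by its coding length, its mean untreated level ranked at place 89 of the 29165 transcripts in J01-S and at 216 in Flur-R. Bs.00g206320.m01 (chr3:37079544-37083261, plus strand), the cytochrome P450, had 14939, 4063 and 13937 in untreated Flur-R, 22306 and 19628 in untreated J01-S and 0, 2 and 0 in untreated 9425. Bs.00g206760.m01 (chr3:37813283-37819131, plus strand), the last silent member, had 20234, 4645 and 17118 in untreated Flur-R, 29715 and 23797 in untreated J01-S and 0 in all 9425 libraries. In each of these transcripts the untreated groups of the 3 lines did not overlap, with J01-S above Flur-R and Flur-R above 9425.

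In some loci Flur-R was as silent as 9425. Bs.00g206140.m01 (chr3:36606794-36609120, plus strand) was listed at 0 in all 10 Flur-R libraries as well as in 9425, and had 140 and 74 in untreated J01-S. Bs.00g206420.m01 (chr3:37313718-37320646, plus strand) was also listed at 0 throughout Flur-R and 9425, with 74 and 76 in untreated J01-S. Bs.00g206490.m01 (chr3:37454493-37455479, plus strand), picked after its values were seen, was at most 2 in Flur-R and had 12 and 15 in untreated J01-S. The other silent members, also picked after their values were seen, were low where they were expressed, with at most 13 for Bs.00g205700.m01, 15 for Bs.00g205940.m01, 41 for the isoform pair of Bs.00g206280 and 36 for Bs.00g206430.m01.

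The silent loci were followed along chromosome 3 in windows of 11 consecutive expressed loci, with the isoform of the highest mean standing for a locus, which leaves out Bs.00g205910. A run of 38 successive windows with at least 3 silent loci covered the stretch, and it held 40 loci of which 16 were silent. Its first silent locus was Bs.00g205670 and its last was Bs.00g206880 (chr3:38086988-38090703), which lies past the end of the stretch. By number of windows the next run on the chromosome had 21, with 9 silent loci of 18, and lay at chr3:40488510-42578892. In bases a run of 11 windows at chr3:16291523-20798843, with 5 silent loci of 17, was longer than either, at 4507 kb against 2961 and 2090 kb. By the same count 36.6% of the 41 loci of the stretch were silent, none of the 3 expressed loci in the 3 Mb before it, 15% of the 40 loci in the 3 Mb after it and 7.57% of the 2432 loci on the chromosome.

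At the lower end, silence in 9425 started between Bs.00g205640 and Bs.00g205670. Before that point 9425 was not the low line in the untreated libraries. Bs.00g205630.m01 and Bs.00g205640.m01 (chr3:35108100-35108895), the members before the first silent locus, were expressed in 9425. Untreated, Bs.00g205630.m01, picked after its values were seen, had 1080, 26 and 27 in 9425 and 15 or less in the other lines. At 3 HAT it did not pass the test against 9425 in Flur-R (log2 difference -1.02, limma, adjusted p = 0.759) or in J01-S (-2.17, adjusted p = 0.451). Bs.00g205640.m01 had 1517, 726 and 1731 in untreated 9425, 0, 909 and 897 in untreated Flur-R and 7 and 1099 in untreated J01-S. The next locus beyond them is Bs.00g205520, which lies 2382 kb away across 10 gene models of which none passed the filter. Bs.00g205520.m01 had 41, 26 and 19 in untreated Flur-R and 57 or less in every 9425 library, and at 3 HAT it did not pass the test against 9425 in Flur-R (log2 difference -0.08, limma with Benjamini-Hochberg adjusted p = 0.96). The locus before that, Bs.00g205510.m01, picked after its values were seen, had 212, 204 and 162 in 9425 at 3 HAT, 305, 403 and 112 in Flur-R and 15 and 3 in J01-S, so J01-S was lower there than 9425 (log2 difference -4.59 ± 1.18, limma, adjusted p = 0.0217) and than Flur-R (adjusted p = 0.019).

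At the upper end, Bs.00g206750.m01 (chr3:37764918-37768346), just before the last silent member, overlapped between all lines, with 25, 33 and 38 in untreated Flur-R, 39, 28 and 39 in untreated 9425 and 18 and 34 in untreated J01-S. After Bs.00g206760.m01 no expressed transcript lies within 268 kb. The next expressed transcript, Bs.00g206880.m01, was listed at 0 in all Flur-R libraries, was at most 6 in 9425, and in J01-S had 76, 78 and 156 in plant 4 (untreated, 3 HAT and 10 HAT) and 0 in plants 1 and 2. So Flur-R and 9425 were both near 0 there, and the last locus silent in 9425 and expressed in Flur-R within the stretch was Bs.00g206760. Beyond a further 602 kb, Bs.00g206910.m01 had 1237, 754 and 243 in untreated Flur-R, 234, 305 and 239 in untreated 9425 and 1818 and 770 in untreated J01-S, and at 3 HAT it did not pass the test between Flur-R and 9425 (log2 difference -0.09, limma with Benjamini-Hochberg adjusted p = 0.976). Further out, Bs.00g206960.m01, picked after its values were seen, had 8, 12 and 15 in untreated Flur-R and 28, 33 and 36 in untreated 9425, without overlap and with 9425 higher, and did not pass the test at 3 HAT (limma, adjusted p = 0.534). The ends of the run of windows moved with the definition. With a mean of at least 50 in Flur-R or J01-S asked for, the run went from chr3:35592344 to chr3:37083261, and with under 5 in place of under 10 it ended at chr3:36609120.

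The silence was interrupted inside the stretch. Of the 45 members 27 were not silent, and 12 of these had a mean under 50 over the 25 libraries. Bs.00g206710.m01 (chr3:37729887-37735970), picked after its values were seen, had 421, 351 and 602 in untreated Flur-R, 379, 695 and 403 in untreated 9425 and 415 and 482 in untreated J01-S. It lies between silent loci, and its groups overlapped in the untreated libraries. The silent loci had a median coding length of 819 bases in 4 coding parts, the other loci of the stretch 592.5 bases in 5 parts, and the loci tested on the chromosome 915 bases in 4 parts. Of the 15 silent loci counted by their main isoform, 8 lie on the plus strand.

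**Figure D2:**
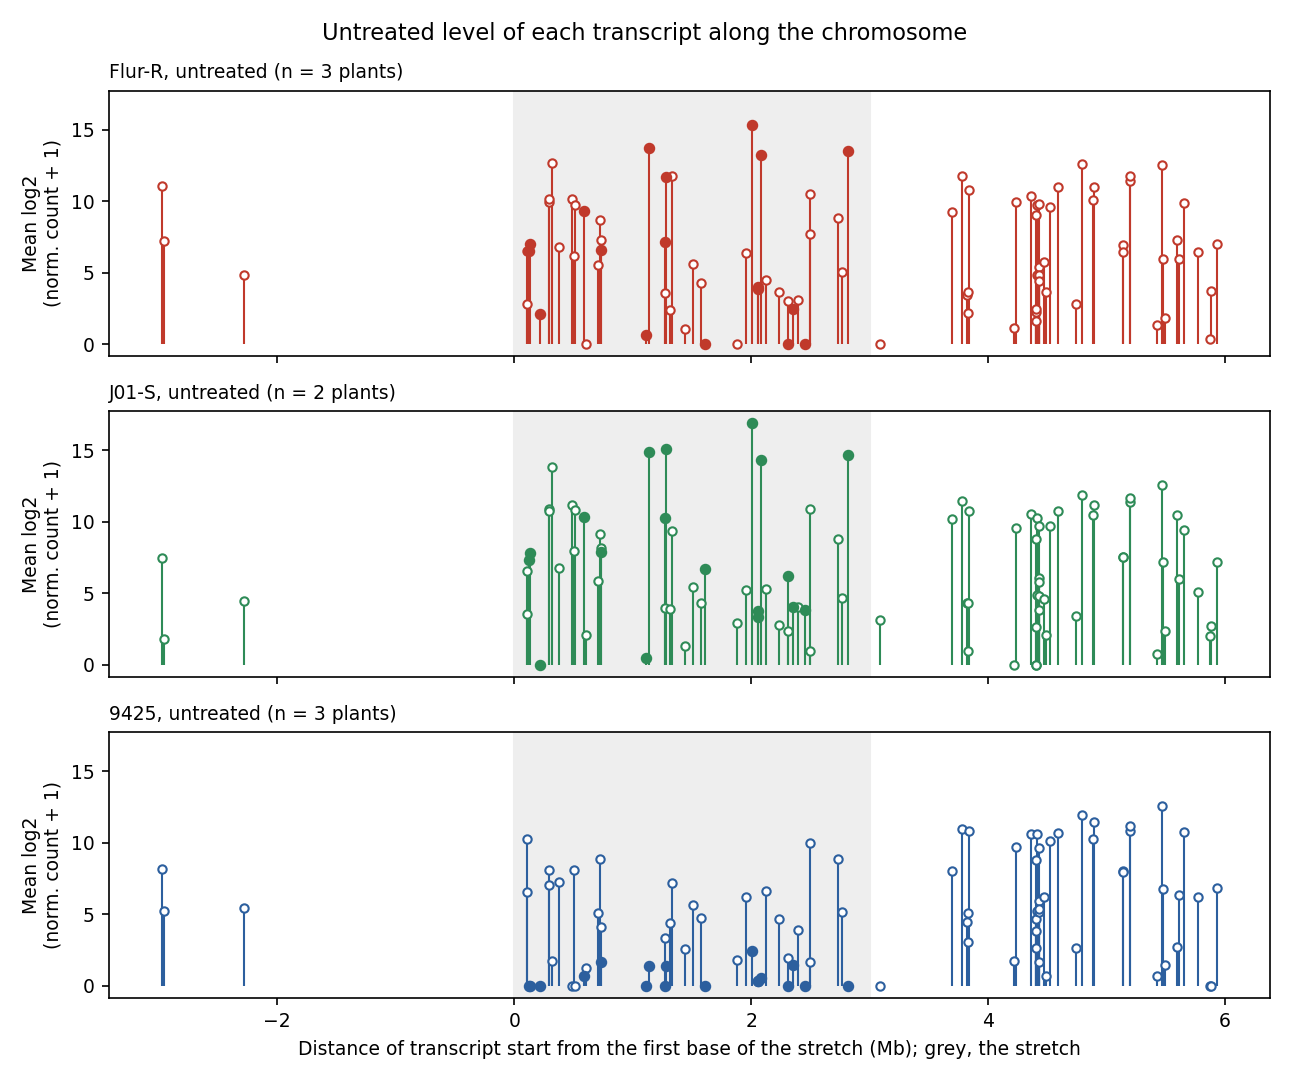
Mean untreated level (log2 of the normalized count plus 1) of each transcript that passed the filter (the CYP90A1 pair and the flanks included) by the distance of its start from the first base of the stretch, for Flur-R, J01-S and 9425. Grey marks the stretch from 0 to 3 Mb and filled points the 18 members silent in 9425, which reach 15.3 in Flur-R and 16.9 in J01-S at Bs.00g206260.m01 and stay at or under 2.41 in 9425.

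Before treatment, 20 members were higher in Flur-R than in 9425 by over 1 on the log2 scale with no overlap between the plants, against 7.2% of all transcripts. This contrast chose the stretch, so the count is given with no test and nothing is read from it. Likewise 20 were higher in J01-S than in 9425, against 9.05% of all transcripts, in a comparison with the same 9425 libraries. The lists shared 16 members, 16 of the 20 in each, and 13 and 16 of their members were silent in 9425. In the opposite direction 3 members were higher in 9425 than in Flur-R (5.36% of all transcripts) and 3 were higher than in J01-S (7.81%).

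Some members that were not silent in 9425 also lay lower there. Bs.00g205740.m01 (chr3:35289535-35292729) had 1254, 856 and 837 in untreated Flur-R, 1842 and 1905 in untreated J01-S and 105, 167 and 127 in untreated 9425. Bs.00g206050.m01 (chr3:36333532-36337147), picked after its values were seen, had 5433, 2559 and 2983 in untreated Flur-R and 260, 80 and 147 in 9425, while J01-S had 3594 in plant 1 and 121 in plant 4. So the J01-S plants fell on either side here, with plant 4 at the level of 9425. Bs.00g205790.m01 (chr3:35507420-35510029), picked after its values were seen, ran the other way, with 65, 81 and 63 in untreated Flur-R and 1286, 172 and 94 in untreated 9425.

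The lines were compared at 3 HAT, in libraries that the choice of the stretch did not use. The Flur-R plants are the same 3 whose untreated libraries chose it, and part of the 9425 plants also gave untreated libraries used for that choice. For the test, 1 was added to each normalized count, log2 was taken and limma was fitted over all 29165 transcripts. Calls required an adjusted p (Benjamini-Hochberg) below 0.05 with a log2 difference beyond 0.5 in size. In Flur-R 16 members were higher than in 9425, against 3.72% of all transcripts, and none was lower, against 1.2% (3 were lower at an unadjusted p under 0.05). In J01-S 17 were higher than in 9425, against 4.46%, and 1 was lower, against 3.22%. The lists shared 14 members. Of the higher members 12 and 13 were silent in 9425 and so passed the filter only through the lines where they are high, so these counts describe the stretch and nothing is read from them. For the same reason the silent members, Bs.00g205750.m01 and Bs.00g206540.m01 are given below against 9425 with their differences and no p. The median log2 difference over the 45 members was 0.76 for Flur-R and 2 for J01-S, with a median of 0 and 0.01 over all transcripts. Fitted to the groups compared alone, the Flur-R count was 10 in place of 16.

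Bs.00g206260.m01 had 3531, 1105 and 35530 in Flur-R at 3 HAT, 47310 and 63854 in J01-S and 0, 3 and 0 in 9425. Its log2 difference from 9425 was 11.67 ± 1.02 (SE) in Flur-R and 15.08 ± 1.14 in J01-S. Bs.00g205950.m01 had 5084, 1938 and 15074 in Flur-R, 15614 and 14169 in J01-S and 0, 0 and 1 in 9425. Its log2 difference was 12.04 ± 0.66 in Flur-R and 13.53 ± 0.73 in J01-S. In both transcripts every library of the other lines lay above 1000 and every 9425 library at 3 or less. The log2 differences of such transcripts depend on the 1 added to each value.

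Bs.00g205750.m01 had 4597, 2417 and 3774 in Flur-R at 3 HAT, 7439 and 10814 in J01-S and 0, 0 and 2 in 9425, which is a log2 difference of 11.23 ± 0.65 in Flur-R. Bs.00g205850.m01 had 628, 205 and 545 in Flur-R, 1010 and 1250 in J01-S and 0, 0 and 1 in 9425, a log2 difference of 8.36 ± 0.53 in Flur-R. For transcripts listed at 0 in all 9425 libraries at 3 HAT no fold is given. These include Bs.00g206020.m01, with 378, 62 and 1991 in Flur-R and 12387 and 21015 in J01-S. They also include Bs.00g206760.m01, with 259, 56 and 5116 in Flur-R and 5356 and 7558 in J01-S. The cytochrome P450 Bs.00g206320.m01 was among them too, with 174, 52 and 3031 in Flur-R and 3162 and 4228 in J01-S.

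Smaller differences passed where 9425 expressed the transcript. Bs.00g205740.m01 had 1169, 636 and 846 in Flur-R at 3 HAT, 1801 and 1882 in J01-S and 138, 108 and 108 in 9425, with log2 differences of 2.86 ± 0.26 in Flur-R (limma, adjusted p = 2.82e-07), while J01-S had 3.96 ± 0.29 (adjusted p = 1.66e-08). Bs.00g206390.m01 (chr3:37235537-37237511) was the member lower in J01-S than in 9425, with 5 and 6 against 41, 92 and 31, a log2 difference of -2.95 ± 0.76 (limma, adjusted p = 0.0221). That call was lost without 9425 3 HAT replicate 2 or replicate 3 and without J01-S 3 HAT replicate 1 or replicate 4. Bs.00g205640.m01, the neighbour of the first silent locus, did not pass in either line, at 2, 1277 and 1352 in Flur-R, 7 and 1810 in J01-S and 3387, 5013 and 2117 in 9425.

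**Figure D3:**
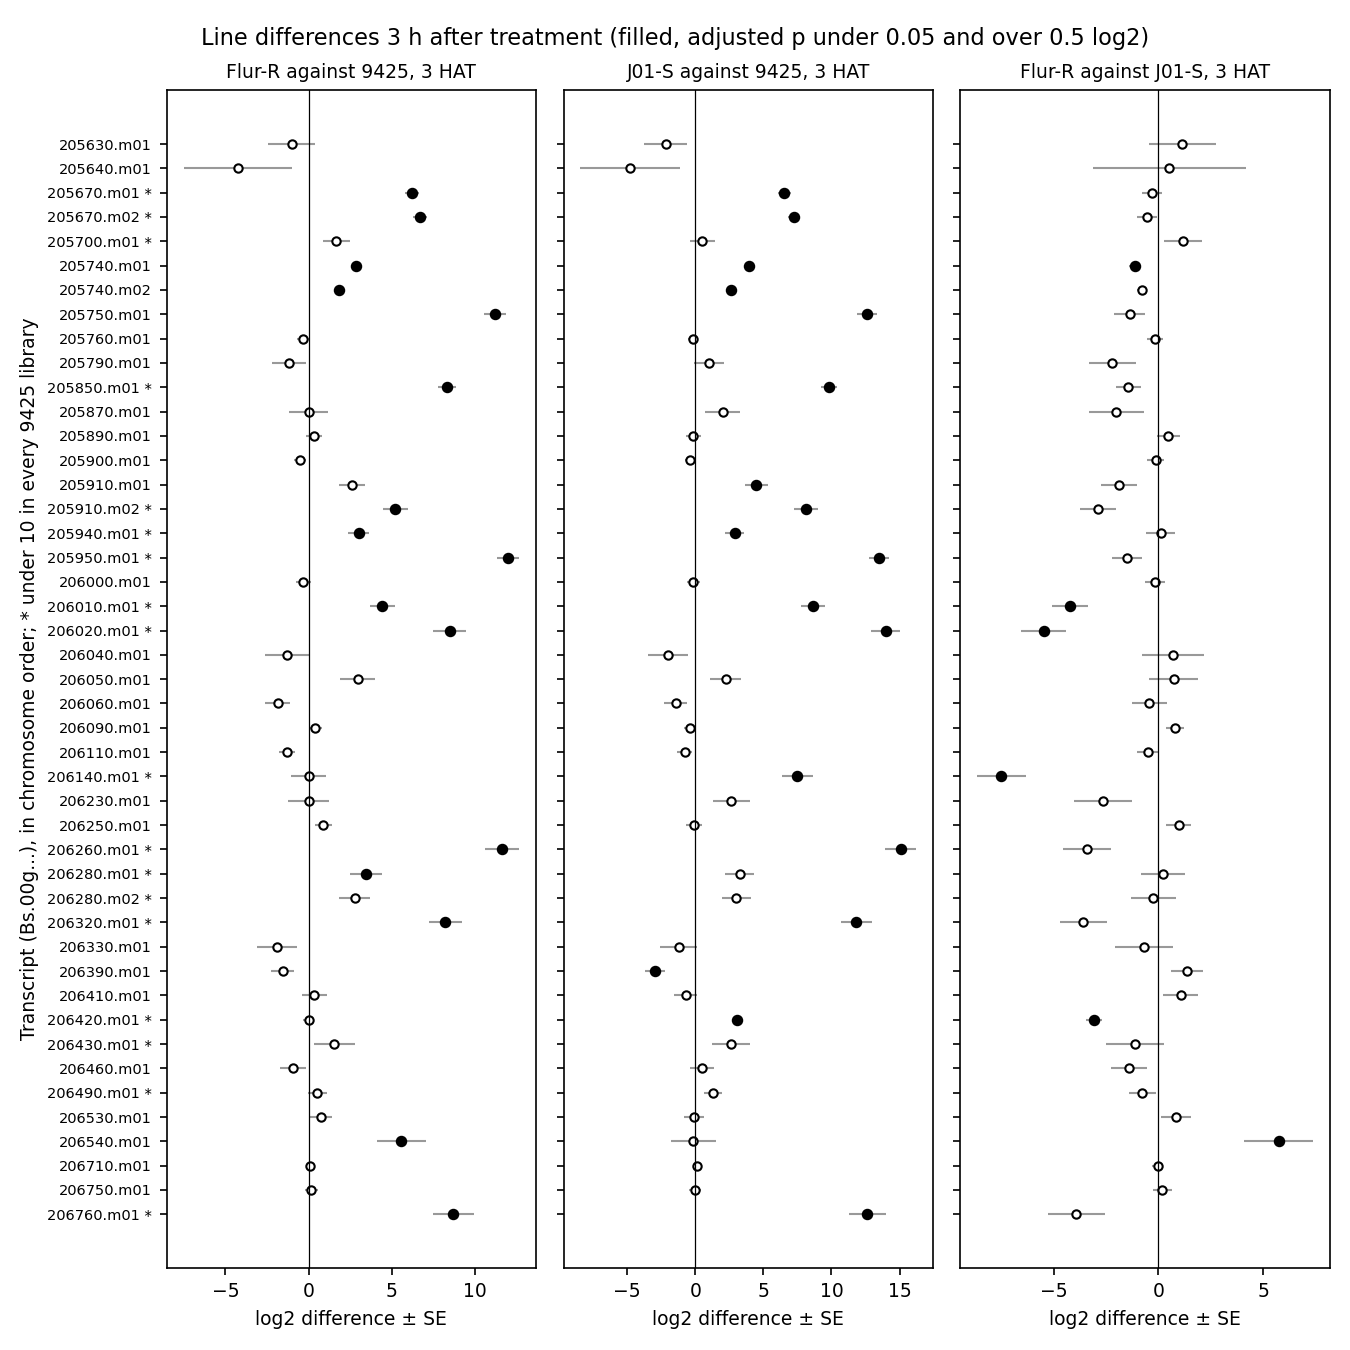
Log2 difference with its standard error for each of the 45 transcripts at 3 HAT between Flur-R and 9425, J01-S and 9425, and Flur-R and J01-S, in chromosome order. Filled points mark calls, 16 to the right in the first panel, 17 to the right and 1 to the left in the second. In the third, 1 lies to the right and 5 to the left. Of all transcripts 3.72% were called to the right in the first comparison and 4.46% in the second. Of the members called to the right, 12 and 13 are silent in 9425. These passed the filter only through the lines where they are high, so nothing is read from the counts against 9425. The calls to the left in the third panel include a pair that passed the filter only through J01-S.

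Flur-R and J01-S, the lines that express the strong transcripts, were compared as well. At 3 HAT 1 member was higher in Flur-R than in J01-S, against 2.38% of all transcripts, and 5 were lower, against 2.53%. The higher one, Bs.00g206540.m01 (chr3:37494749-37495680), had 348, 145 and 124 in Flur-R, 2 and 3 in J01-S and 6, 7 and 0 in 9425, with a log2 difference of 5.74 ± 1.64 from J01-S and of 5.6 ± 1.46 from 9425. The call against J01-S was lost with the plant as a random block, with a pseudocount of 0.5, with no filter or a filter at 50, with upper quartile rescaling and with all 27 libraries, and when any library of the 5 at 3 HAT was left out. J01-S plant 2, sampled at 10 HAT only, had 628. That single library had 27.3% on the 9425 side where the lines were checked, against 4.19% for plant 4. Whether this transcript parts the plants of J01-S therefore rests on that library and was not tested. The lower ones were Bs.00g205740.m01, Bs.00g206010.m01, Bs.00g206020.m01, Bs.00g206140.m01 and Bs.00g206420.m01.

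Bs.00g206020.m01 was lower in Flur-R than in J01-S by a log2 difference of -5.48 ± 1.09 (limma, adjusted p = 0.0047), and its neighbour Bs.00g206010.m01, at 17, 6 and 81 against 237 and 681, by -4.21 ± 0.86 (adjusted p = 0.00561). For Bs.00g205740.m01 the difference was -1.1 ± 0.29 (limma, adjusted p = 0.031). Its other isoform, Bs.00g205740.m02, did not pass (-0.79 ± 0.25, limma, adjusted p = 0.0774). Fitted to the groups compared alone, none of these differences passed. The adjusted p (limma) was then 0.246 for Bs.00g206020.m01, 0.263 for Bs.00g206010.m01 and 0.24 for Bs.00g205740.m01. Bs.00g206140.m01, at 213 and 150 in J01-S, was listed at 0 in Flur-R, and it passed the filter only through J01-S, as did Bs.00g206420.m01, so no p is given for either. The other strong transcripts did not pass. Bs.00g206260.m01 had a log2 difference of -3.41 ± 1.14 (limma, adjusted p = 0.0954) and Bs.00g205950.m01 one of -1.49 ± 0.73 (adjusted p = 0.254). The count of 6 members rested on few plants. It was 2 without J01-S 3 HAT replicate 4 and 10 without Flur-R 3 HAT replicate 4, and 2 when only the groups compared were fitted or when all 27 libraries were used.

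After treatment most of the strong transcripts fell in Flur-R and in J01-S. In Flur-R at 3 HAT 4 members were lower than untreated, against 4.42% of all transcripts, and 1 was higher, against 5.11%. The 4 were Bs.00g206010.m01, Bs.00g206020.m01, Bs.00g206320.m01 and Bs.00g206760.m01, and only at Bs.00g206320.m01, from 4063 or more to 3031 or less, did the groups not overlap. No p is given for that fall, since the untreated values of this transcript chose the stretch. At 10 HAT 8 were lower, against 11%, and 1 was higher, against 8.22%. In J01-S at 3 HAT 2 were lower, Bs.00g206420.m01 and Bs.00g206490.m01, against 3.79%, and none was higher, against 4.68% (1 was higher at an unadjusted p under 0.05). Both passed the filter only through the untreated J01-S libraries, where they are high, so nothing is read from that count. At 10 HAT 7 were lower, against 7.71%, and 1 was higher, against 5.72%. The same pair is among the 7, and the rest are the 5 named below. Of the members that fell at 10 HAT, 6 in each line were silent in 9425. The share of all transcripts was not counted for this or for falls shared by the lines. Nothing is therefore read from either count. Members that fell in both lines numbered 5. These were Bs.00g205900.m01, Bs.00g205950.m01, Bs.00g206260.m01, Bs.00g206320.m01 and Bs.00g206760.m01.

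The deepest falls in Flur-R at 10 HAT were in the upper part of the stretch. Bs.00g206760.m01 had 6, 9, 25 and 145 in Flur-R plants 1 to 4 at 10 HAT and 146 and 1132 in J01-S plants 2 and 4. Its change from untreated was -9.01 ± 1.14 in Flur-R (limma, adjusted p = 1.28e-05), while J01-S had -6.03 ± 1.49 (adjusted p = 0.0105). Since all groups were fitted together, these errors and p also draw on the 9425 libraries, listed at 0 for this transcript. Fitted to the groups compared alone, the J01-S change did not pass (limma, adjusted p = 0.127), while the Flur-R change did. The mean of Bs.00g206760.m01 at 10 HAT was 0.33% of the untreated mean in Flur-R and 2.39% in J01-S. The cytochrome P450 Bs.00g206320.m01 had 8, 12, 13 and 39 in Flur-R at 10 HAT, 0.164% of its untreated mean, which is given with no test for the same reason and because this fall was known from the study. It is counted among the 8 lower members, of which 7 remain without it. In J01-S it had 134 and 635 at 10 HAT, a change of -6.16 ± 1.23 (limma, adjusted p = 0.00221), which did not pass when fitted to the groups compared alone (adjusted p = 0.0965). The groups before and after treatment did not overlap in either line.

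Bs.00g206260.m01 had 79, 100, 209 and 1007 in Flur-R at 10 HAT and 1872 and 8341 in J01-S. It changed by -7.63 ± 0.95 in Flur-R (limma, adjusted p = 1.12e-05), while J01-S had -4.94 ± 1.25 (adjusted p = 0.0121). Bs.00g205950.m01 fell less deeply, to 772, 699, 745 and 1460 in Flur-R and 2645 and 5994 in J01-S, changes of -3.96 ± 0.61 (limma, adjusted p = 0.000112) and -2.9 ± 0.8 (adjusted p = 0.0208). Fitted to the groups compared alone, the J01-S changes did not pass. The adjusted p (limma) was then 0.115 for Bs.00g206260.m01 and 0.109 for Bs.00g205950.m01, while their Flur-R changes still passed. Bs.00g206020.m01 had 17, 38, 20 and 105 in Flur-R at 10 HAT, a change of -6.56 ± 0.91 (limma, adjusted p = 3.68e-05), and 3161 and 8386 in J01-S, a change of -2.78 ± 1.2 that did not pass (adjusted p = 0.138). In each of these transcripts both J01-S libraries at 10 HAT lay above every Flur-R library of that time, at Bs.00g206760.m01 by 1 count only. Bs.00g206010.m01 had 0, 1, 1 and 4 in Flur-R at 10 HAT, a change of -6.07 ± 0.72 (limma, adjusted p = 6.08e-06), and 167 and 349 in J01-S.

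Not every transcript near 0 in 9425 passed the test for a fall in the other lines. Bs.00g205750.m01, just outside the definition of silent, was at 2180, 2667, 3166 and 2965 in Flur-R at 10 HAT, 40.4% of its untreated mean, and did not pass the test in Flur-R (limma, log2 change -1.27 ± 0.61, adjusted p = 0.17) or in J01-S (-1.2 ± 0.8, adjusted p = 0.373). The values of Bs.00g205750.m01 were still lower at 10 HAT than untreated, without overlap in either line. They went from 4996 or more to 3166 or less in Flur-R and from 12967 or more to 8641 or less in J01-S. Bs.00g205850.m01 had 846, 827, 430 and 582 in Flur-R at 10 HAT, with a log2 change of 0.01 ± 0.5. Bs.00g205940.m01 was the member called higher, in Flur-R at both times and in J01-S at 10 HAT, but from a level of 3 or less to at most 15. Its values reached 10 in 2 Flur-R libraries at 3 HAT alone, through which it passed the filter, so no p is given. The groups in Flur-R overlapped, and the call in J01-S was lost with the plant block.

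**Figure D4:**
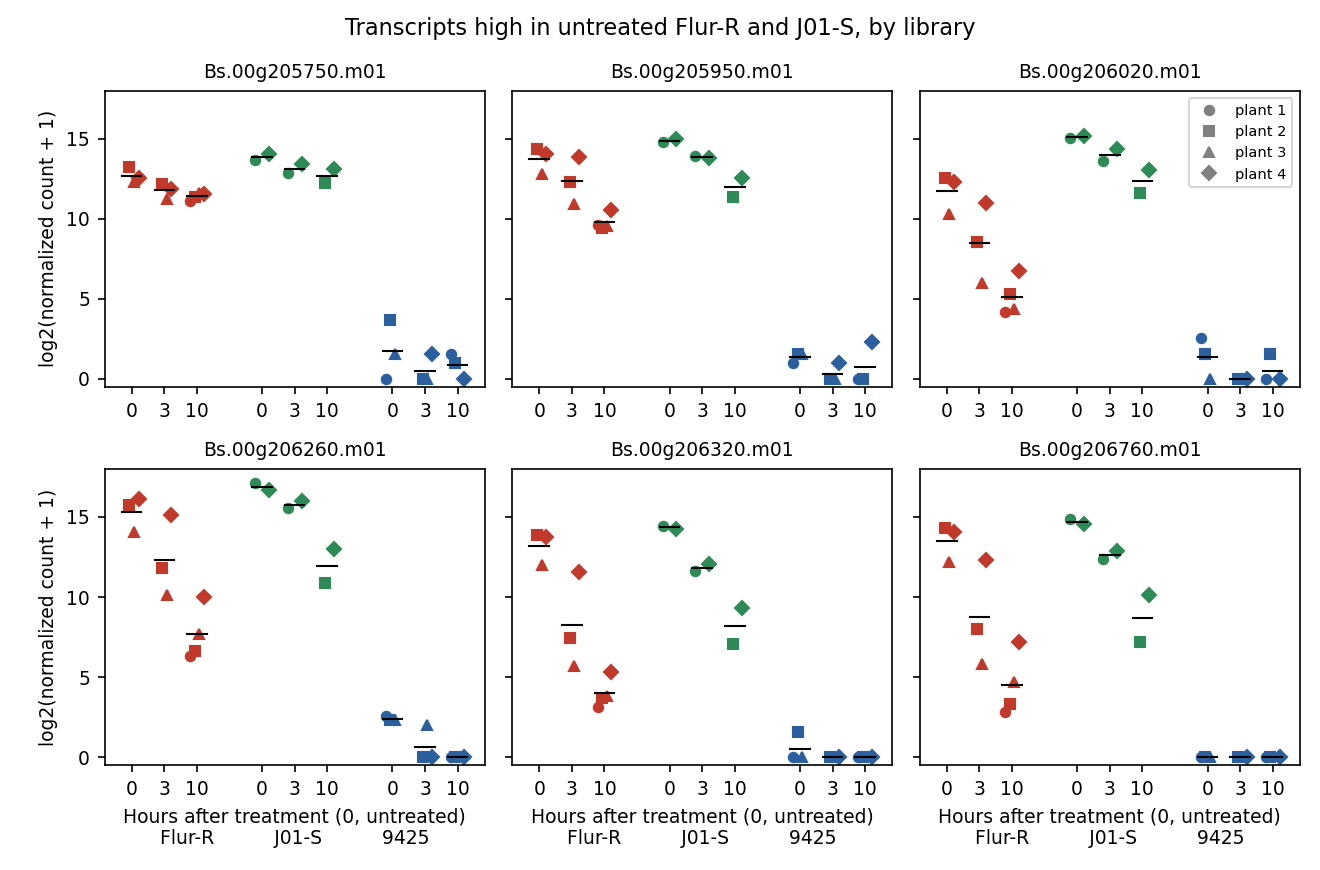
Log2 of the normalized count plus 1 of 6 transcripts by line and hours after treatment (0 stands for untreated), 1 point per library with a marker for the plant and a line at the group mean. In the lower row the Flur-R means fall from 15.3, 13.2 and 13.5 untreated to 7.67, 4 and 4.5 at 10 HAT, while the 9425 means lie at 2.41 or less.

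A pair of members expressed in all lines fell by 10 HAT, Bs.00g205900.m01 in all 3 lines and Bs.00g206530.m01 in Flur-R and 9425. Bs.00g205900.m01 (chr3:35725426-35727312) had 410, 450 and 390 in untreated Flur-R and 186, 135, 99 and 50 at 10 HAT, 706, 275 and 481 in untreated 9425 and 56, 60 and 49 at 10 HAT, and 624 and 522 in untreated J01-S and 126 and 132 at 10 HAT. Its log2 change was -1.97 ± 0.34 in Flur-R (limma, adjusted p = 0.00033) and -3.03 ± 0.36 in 9425 (adjusted p = 9.21e-06). The J01-S change was -2.14 ± 0.44 (limma, adjusted p = 0.003). Bs.00g206530.m01 (chr3:37492661-37493269) had 609, 1357 and 1270 in untreated 9425 and 334, 184 and 300 at 10 HAT, a change of -1.94 ± 0.64 (limma, adjusted p = 0.0362), and changed by -1.87 ± 0.6 in Flur-R (adjusted p = 0.0326). In J01-S its change of -1.94 ± 0.78 did not pass (adjusted p = 0.112). These were the 2 members lower in 9425 at 10 HAT, against 10.9% of all transcripts. None was higher there, against 9.86% (1 at an unadjusted p under 0.05). At 3 HAT limma called none in 9425 in either direction, against 4.22% higher and 3.76% lower of all transcripts, and none had an unadjusted p under 0.05.

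Since plants were sampled repeatedly, the changes were also fitted with the plant as a block. The share of all transcripts called in that fit was not counted, so nothing about the stretch is read from its counts. The plant block called 10 members in Flur-R at 3 HAT in place of 5, of which 9 were lower. The added falls were Bs.00g205900.m01, Bs.00g205950.m01, Bs.00g206050.m01, Bs.00g206110.m01 (picked, like Bs.00g206050.m01, after its values were seen) and Bs.00g206260.m01, the last with a log2 change of -2.96 ± 0.65 (limma with the plant block, adjusted p = 0.00914) against an adjusted p of 0.0774 without the block. In 9425 the block called 3 members at 3 HAT in place of 0 and 7 at 10 HAT in place of 2. In these Bs.00g205640.m01 rose, by 1.49 ± 0.37 at 3 HAT (limma with the plant block, adjusted p = 0.0201) and by 1.9 ± 0.37 at 10 HAT (adjusted p = 0.0025). It was also called higher in Flur-R at 10 HAT, by 1.2 ± 0.34 (limma with the plant block, adjusted p = 0.0204). In J01-S the block called 4 at 3 HAT in place of 2 and 8 at 10 HAT, where only plant 4 was also sampled untreated. Of the 8 without the block 6 were kept, Bs.00g205940.m01 and Bs.00g206490.m01 were lost, and all 8 called with the block were lower.

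Single plants moved the counts of changes over time. Without Flur-R 3 HAT replicate 2 or Flur-R untreated replicate 4 the count in Flur-R at 3 HAT was 1 in place of 5, and without Flur-R 3 HAT replicate 3 or Flur-R untreated replicate 2 it was 2. In 9425 at 10 HAT it was 1 in place of 2 without any of 5 libraries, the 3 at 10 HAT and untreated replicates 2 and 3, and at 3 HAT it was 1 in place of 0 without untreated replicate 1. In J01-S at 10 HAT it was 4 in place of 8 without untreated replicate 1 or 10 HAT replicate 2. In J01-S at 3 HAT it was 1 in place of 2 without untreated replicate 1, untreated replicate 4 or 3 HAT replicate 4. Fitted to the groups compared alone, no change in J01-S passed at either time. In Flur-R at 3 HAT none of the 5 members passed in that fit, with an adjusted p (limma) of 0.229 for Bs.00g206760.m01, and 1 member that was not among the 5 did.

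The test of a difference in response between Flur-R and J01-S called no transcript of the series at 3 HAT (0% in each direction, with 2 members at an unadjusted p under 0.05), and with the plant block it called 1 member. At 10 HAT it called a single transcript of the 29165 (0.00343%), and this was a member, Bs.00g206420.m01, with a response higher in Flur-R, and none in the other direction (0%, with 4 members lower at an unadjusted p under 0.05). It had 74 and 76 in untreated J01-S, 9 and 6 at 3 HAT and 1 and 2 at 10 HAT, and was listed at 0 in all Flur-R libraries, so the difference in response is the log2 change in J01-S, -4.96 ± 0.41 at 10 HAT, with its sign turned. It passed the filter only through the untreated J01-S libraries, so no p is given for the fall or for the difference, and the same holds for Bs.00g206490.m01. The deeper fall of Bs.00g206760.m01 in Flur-R than in J01-S at 10 HAT, a difference of -2.99 ± 1.88, did not pass (limma, adjusted p = 0.995). Without J01-S 10 HAT replicate 4 the count at 10 HAT was 2.

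The Flur-R plants differed from each other in the same way at several strong loci. For Bs.00g205950.m01, Bs.00g206020.m01, Bs.00g206260.m01, Bs.00g206320.m01 and Bs.00g206760.m01, the silent transcripts with a mean of 1000 or more over the untreated and 3 HAT libraries of Flur-R and J01-S, plant 3 was the lowest of the untreated plants. Its level was 0.203 to 0.352 of that of plant 2. At 3 HAT plant 4 was the highest and plant 3 the lowest at all 5 loci, with plant 4 at 7.78 to 91.4 times plant 3. Between untreated and 3 HAT plant 4 kept 0.217 to 0.88 of its level, while plant 2 kept 0.0116 to 0.248. Which of these differences belong to the plant and which to the sampling cannot be told apart, with 1 library for each plant and time.

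Some members parted the plants within a line at every time sampled. Bs.00g205640.m01 was at 3 or less in Flur-R plants 1 and 2 and at 897 or more in plants 3 and 4, at 7 or less in J01-S plants 1 and 2 and at 1099 or more in plant 4, and at 726 or more in every 9425 library. Bs.00g206330.m01 (chr3:37125972-37146328), picked after its values were seen, was at 9 or less in Flur-R plant 2 and at 67 or more in plant 3. Bs.00g206140.m01 was at 0 in J01-S plant 2 and at 74 or more in plants 1 and 4. Bs.00g206540.m01 went the other way in J01-S, at 628 in plant 2 and 3 or less in plants 1 and 4. Both of these J01-S differences rest on the single library of plant 2. It had 27.3% on the 9425 side where the lines were checked, against 4.19% for plant 4. The inbred line 9425 was not free of such differences. Bs.00g205630.m01, picked after its values were seen, had 1080 and 1637 in 9425 plant 1 (untreated and 10 HAT) and at most 43 in the other 9425 plants, and Bs.00g205790.m01 had 865 or more in 9425 plants 1 and 4 and 172 or less in plants 2 and 3.

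**Figure D5:**
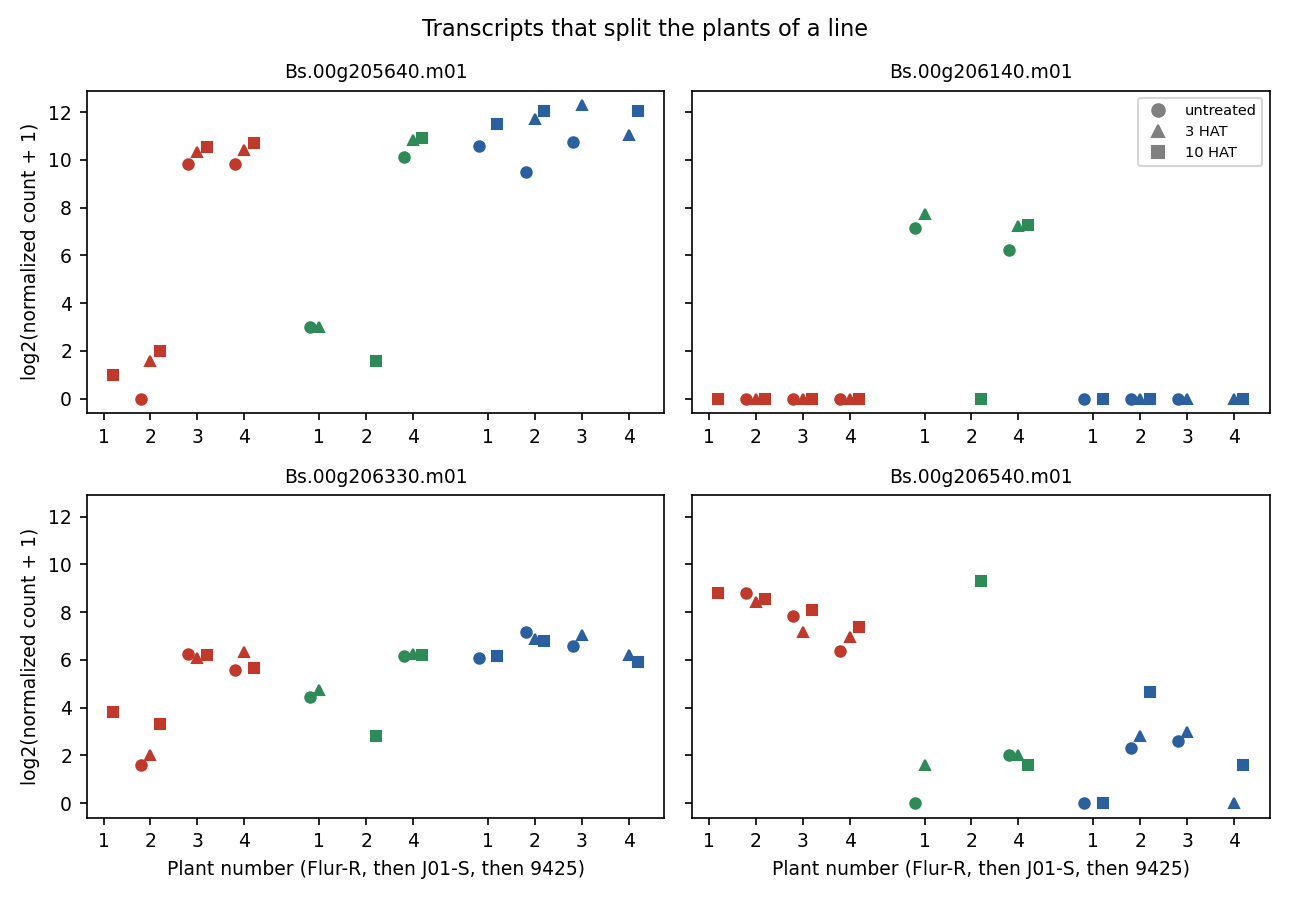
Log2 of the normalized count plus 1 of 4 transcripts by line and plant (red, Flur-R; green, J01-S; blue, 9425), with a marker for the time of sampling. Samples of the same plant lie together, as for Bs.00g205640.m01 with Flur-R plants 1 and 2 at 3 normalized counts or less and plants 3 and 4 at 897 or more.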

How the data were processed

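RNA-seq libraries of kochia were aligned by the authors with HISAT2 (2.1.0 in the submitters' processing notes) to the coding sequences of genome assembly version 2, counted per transcript and normalized with DESeq. DESeq2 1.28.1 in those notes was the authors' test tool. As deposited, the values are whole normalized counts, treated as a score because they are not raw counts. Positions came from the deposited gene models, and no sequence is shown because no genome was used here.

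The members and lists were chosen with earlier results of these data known. Groups of line and time came from the sample titles. limma 3.58.1 in R 4.3.3 was fitted with a variance trend on log2(value + 1) over 29165 transcripts at 10 or more in at least 2 libraries, in 1 fit of 9 groups and 25 libraries. Each standard error and p therefore rests on the spread within all groups, those of 9425 included, where silent members were at 5 or less. This can make the errors of silent members in the other lines smaller. Calls needed an adjusted p under 0.05 and a log2 change over 0.5 in size. Descriptions used Python 3.11.15 and pandas 2.3.3. The procedure was tested on simulated data.

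Alternatives were another pseudocount, other filters, upper quartile rescaling, all 27 libraries, only the groups compared, the plant as a replicate block, and each library left out in turn. The plant numbers pair the libraries of a line, since each plant was sampled over time. Deviations from group means of samples of a plant correlated at 0.722, 0.506 and 0.605 (medians for Flur-R, 9425 and J01-S), and those of different plants at -0.275, -0.241 and -0.446. Between lines the numbers link nothing, so the block there was a random plant effect. The labels place no library in an extraction batch, so no batch term was fitted.

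The 20 named transcripts are the silent ones with the highest means over untreated and 3 HAT Flur-R and J01-S libraries (up to 12 with a mean of 50 or more), the first and last silent member and their neighbours, the largest called changes without overlap and with 50 or more as the mean of the higher side (5 per direction between lines, 3 over time), the 3 highest by mean, up to 5 members below 10 throughout Flur-R or J01-S with a mean of 50 or more in 9425 (there were none), and Bs.00g206320.m01. The text marks any other transcript as picked with its values in view.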

Additional observations from a re-analysis of the deposited data

Results flagged for a closer look

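In Flur-R at 10 HAT, the only group of 4 libraries, plant 4 lay far from the other 3 plants at 2 of the 12 named transcripts examined. For normally distributed values chance flags about 1 group in 20. The rule was applied to normalized counts before log2, so that rate may not hold here. Bs.00g205950.m01 had 1460 there beside 699 to 772, and Bs.00g206260.m01 had 1007 beside 79 to 209. Both values are from the same library, so they are not independent of each other.

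The response of Bs.00g206420.m01 at 10 HAT differed between Flur-R and J01-S by 4.96 ± 0.52 (SE) on the log2 scale in the limma interaction contrast. It was listed at 0 in every Flur-R library, so this is the J01-S change with its sign turned, and it passed the filter only through J01-S. Untreated J01-S had 74 and 76 in plants 1 and 4 and at 10 HAT 1 and 2 in plants 2 and 4, so only plant 4 was followed from untreated to 10 HAT.

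The library labelled 9425 10 HAT replicate 3, which entered no comparison, had 10 or more at 12 of the 18 transcripts that were silent in the other 9425 libraries. Bs.00g205950.m01 had 2903 in it, Bs.00g206260.m01 had 1900 and Bs.00g205850.m01 had 1140. The library labelled J01-S 10 HAT replicate 3 had 10 or more at 2 of the 18. With all 10 libraries labelled 9425, 6 members counted as silent.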

How the results depend on the processing

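Of 67 single calls, tried under 900 alternatives in all, 758 kept the call, 142 lost it and 0 changed direction. The calls include those of silent members against 9425, from which nothing is read. Other filters and the fit of only the groups compared leave the log2 difference as it was. The direction could not change under these, so nothing is read from the 0. The count of silent members was 11 with a mean of 50 or more asked for, 6 with all 10 libraries labelled 9425, and 18 to 19 with libraries left out. The silent run began at 35592344 with the higher mean and at 37313718 with all 10 libraries, and ended at 37083261 with the higher mean and at 36609120 with under 5 as silent.

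Pairing by the plant block gave 10 calls in Flur-R at 3 HAT, 3 and 7 in 9425 at 3 and 10 HAT, 4 in J01-S at 3 HAT and 1 for the response at 3 HAT, and moved no other count by over 1.5 times. With only the groups compared the counts were 10 for Flur-R against 9425, 2 for Flur-R against J01-S, 1 for Flur-R at 3 HAT, 0 and 0 for J01-S at 3 and 10 HAT and 0 for the response at 10 HAT. With all 27 libraries they were 2 for Flur-R against J01-S and 0 for Flur-R at 3 HAT. Without a filter they were 3 for Flur-R at 3 HAT, 1 for 9425 at 10 HAT and 1 for the response at 3 HAT. A filter at 50 gave 1 for J01-S at 3 HAT and 0 for the response at 10 HAT, a pseudocount of 0.5 gave 1 for J01-S at 3 HAT, and a pseudocount of 8 gave 1 for the response at 3 HAT.

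Leaving out 1 library gave 14 to 16 for Flur-R against 9425, 16 to 18 for J01-S against 9425, 2 to 10 for Flur-R against J01-S, 1 to 6 for Flur-R at 3 HAT, 7 to 9 at 10 HAT, 0 to 1 and 1 to 3 for 9425, 1 to 2 and 4 to 9 for J01-S, and 1 to 2 for the response at 10 HAT. Where this left J01-S with 1 library in a group, that library was assumed to vary like the other groups. The causes were not tested. Groups of 2 and 3 plants limit what can be called, and the depth behind a value is unknown.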
